A study of Trametes coccinea with 9 samples.

Results

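Manganese peroxidases (MnPs) are secreted heme enzymes of white-rot fungi. They use hydrogen peroxide to oxidize manganese(II) to manganese(III), which leaves the enzyme bound to organic acids and attacks phenolic units of lignin at a distance. They belong to the class II peroxidases, together with lignin peroxidases (LiPs), which oxidize high-potential aromatic compounds at an exposed tryptophan, and versatile peroxidases (VPs), which combine both kinds of site. Class II peroxidases need an outside supply of hydrogen peroxide, for which secreted oxidases of glucose-methanol-choline and copper radical families are known sources.

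The genome of *Pycnoporus coccineus* CIRM-BRFM 310 holds 4 gene models that the study annotated as MnPs by the residues of their manganese site: 1468611, 1436321, 1464049 and 1369658. All 4 were classed as short MnPs with a predicted signal peptide. The members were taken by these gene numbers, as 4 of the 12690 genes in the count tables and 4 of 11 annotated class II peroxidases, and the tables themselves hold no gene names. The number of MnP and LiP genes differs between the main text of the study and its supplement, and the annotation of the supplement was used here. Their sequences are not analysed here.

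The fungus was grown in shaken liquid culture and RNA was sequenced on day 3 from 3 independent cultures each on ground pine, ground aspen and maltose, which was the control. The wood media held 15 g/l wood with 2.5 g/l maltose by the study's methods (the GEO entry for maltose on aspen is incomplete), and the control medium held 20 g/l maltose and no wood. Wood and a lower maltose concentration thus changed together, and their effects cannot be told apart. The pine, *Pinus halepensis*, was ground with its bark, whereas the aspen, *Populus grandidentata*, was milled separately, so tree species and preparation also differed together. The strain was 1 isolate throughout. RNA came from whole mycelium, in which more transcript per cell cannot be told apart from more cells carrying the transcript.

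The libraries held 28399534 to 38654866 counts. Levels below are CPM, counts relative to library size after scaling by the trimmed mean of M-values (TMM), and calls rest on a Benjamini-Hochberg adjusted p under 0.05 from edgeR's quasi-likelihood test over 11130 genes that passed a filter on low counts. All 4 MnP genes passed that filter, and none had fewer than 28 counts in any library. Maltose replicate 3 stood apart, with a TMM factor of 1.27 where the other 8 libraries lay between 0.835 and 1.05. It also held the highest level of each MnP among the maltose cultures, and its part in the results is given below by leaving it out.

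Together, the MnP transcripts were scarce on maltose and abundant on both woods. Their summed level was 453, 1343 and 2398 CPM in the 3 pine libraries, 2060, 3137 and 1936 CPM in the 3 aspen libraries, and 6.69, 6.58 and 15.1 CPM in the 3 maltose libraries. No wood library overlapped with a maltose library, whereas pine and aspen overlapped. On the log2 scale the summed level was 7.02 higher on pine than on maltose and 8.05 higher on aspen than on maltose, each with an exact two-sided permutation p of 0.1, the smallest that 3 against 3 cultures can give (0.15 when adjusted over the 3 comparisons). Pine minus aspen was -1.03 (exact two-sided permutation p = 0.3), and -0.37 without pine replicate 1 or -1.57 without pine replicate 3. The 2 comparisons with maltose share the same 3 maltose libraries.

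On pine, 2 of the 4 MnP transcripts rose against maltose and none fell, where 29.1% of all tested genes rose and 28.8% fell. On aspen, 3 rose and none fell, where 26.3% of all tested genes rose and 24.9% fell. Between pine and aspen, 2 were lower on pine and none was higher, where 15.1% of all tested genes were lower and 15.2% were higher. The median log2 fold change of the 4 members was 3.73 on pine, 7.08 on aspen and -1.06 for pine against aspen, beside medians over all tested genes of -0.03, -0.02 and -0.05. The members therefore fell into 3 patterns, which are described in turn.

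**Figure D1:**
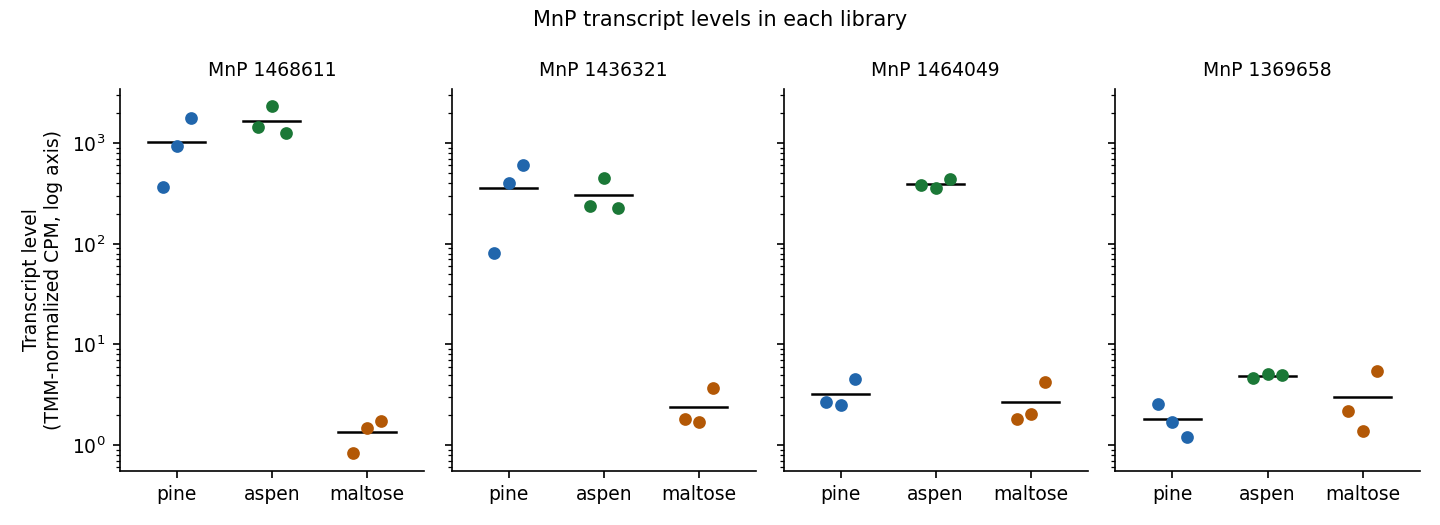
Transcript level of each MnP gene in TMM-normalized CPM (log axis) on pine, aspen and maltose. Each point is 1 library and each line the mean of 3 libraries. MnPs 1468611 and 1436321 were high on both woods, 1464049 was high in the 3 aspen libraries alone (361 to 444 CPM), and 1369658 stayed under 6 CPM in all 9 libraries.

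MnP 1468611 was the most abundant MnP transcript on both woods. It received 12756, 27441 and 44580 counts in the pine libraries, 50208, 83085 and 42527 counts in the aspen libraries, and 28, 54 and 66 counts in the maltose libraries. Scaled to library size, this was 368, 939 and 1791 CPM on pine, 1436, 2321 and 1259 CPM on aspen, and 0.829, 1.49 and 1.74 CPM on maltose. Every wood culture lay above every maltose culture, while 2 of the 3 aspen cultures lay within the pine range.

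The transcript rose 758-fold on pine (log2 fold change 9.57, SE 0.66, edgeR adjusted p = 1.94e-07) and 1228-fold on aspen (log2 fold change 10.26, SE 0.68, edgeR adjusted p = 1.09e-07). Pine against aspen gave a log2 fold change of -0.70 with a 95% confidence interval of -1.67 to 0.28 and an edgeR adjusted p of 0.262. Without pine replicate 3, the highest of the pine cultures, this difference became -1.36 and passed the threshold (edgeR adjusted p = 0.0378). By raw count, 1468611 ranked 527, 207 and 90 among all genes in the pine libraries and 81, 44 and 95 in the aspen libraries, against 9729, 9222 and 9326 in the maltose libraries. It was thus among the 100 most counted genes in 1 pine library and in each aspen library.

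MnP 1436321 was also abundant on both woods, at lower levels than 1468611, and scarce on maltose. It had 2785, 11716 and 14963 counts on pine, 8328, 16078 and 7722 counts on aspen, and 62, 61 and 142 counts on maltose. The levels were 80.3, 401 and 601 CPM on pine, 238, 449 and 229 CPM on aspen, and 1.84, 1.69 and 3.74 CPM on maltose. As for 1468611, no wood culture overlapped with maltose, and the pine cultures spread on both sides of the aspen cultures.

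The rise of 1436321 was 148-fold on pine (log2 fold change 7.21, SE 0.71, edgeR adjusted p = 2.77e-06) and 126-fold on aspen (log2 fold change 6.97, SE 0.70, edgeR adjusted p = 3.78e-06). Between the woods no difference was found (log2 fold change 0.24, 95% confidence interval -0.92 to 1.40, edgeR adjusted p = 0.764), and the sign turned to -0.34 without pine replicate 3. The annotated span of 1436321 overlaps that of its neighbour 507860 by 454 bp, so reads in the overlap are uncertain. Gene 507860 averaged 2.16 CPM on pine, 1.56 CPM on aspen and 1.11 CPM on maltose and was not called in any comparison.

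Both of these transcripts varied widely among the pine cultures. The highest pine library held 4.87 times the level of the lowest for 1468611 and 7.49 times for 1436321, against 1.84 and 1.97 times among the aspen libraries. Pine replicate 1 was the lowest and pine replicate 3 the highest of the pine cultures for both genes. The coefficient of variation on pine was 69.4% for 1468611 and 72.8% for 1436321, against 34.1% and 40.8% on aspen.

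**Figure D2:**
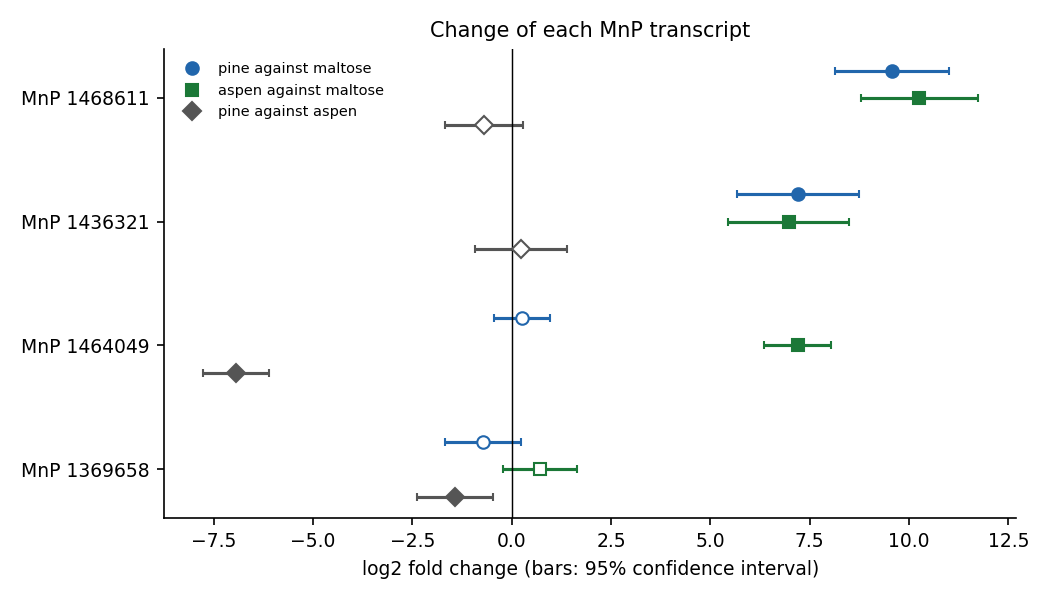
log2 fold change of each MnP transcript in the 3 comparisons, with 95% confidence intervals from the edgeR fit. Filled symbols passed the threshold on the adjusted p and open symbols did not. On pine against maltose, 1464049 lies at 0.26 beside 9.57 for 1468611 and 7.21 for 1436321, whereas on aspen against maltose these 3 genes lie between 6.97 and 10.26.

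MnP 1464049 rose on aspen and was not called on pine. Its counts were 93, 74 and 112 on pine, 13305, 12914 and 14994 on aspen, and 62, 73 and 160 on maltose. The corresponding levels were 2.68, 2.53 and 4.50 CPM on pine, 381, 361 and 444 CPM on aspen, and 1.84, 2.02 and 4.21 CPM on maltose. The aspen cultures lay far above all others and were close to each other, the highest at 1.23 times the lowest, while pine and maltose overlapped.

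The transcript was 146-fold higher on aspen than on maltose (log2 fold change 7.19, SE 0.39, edgeR adjusted p = 3.43e-08). On pine it was 123-fold lower than on aspen (log2 fold change -6.94, SE 0.39, edgeR adjusted p = 2.62e-07). Pine against maltose gave a log2 fold change of 0.26 with a 95% confidence interval of -0.44 to 0.95 (edgeR adjusted p = 0.519). That value depended on single libraries: it was -0.06 without pine replicate 3, and 0.74 with an edgeR adjusted p of 0.0425 without maltose replicate 3. The aspen rise and the difference between the woods kept their calls in each of the 17 alternatives tried, with log2 fold changes of 6.97 to 7.67 and -7.24 to -6.71.

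MnP 1369658 stayed near the bottom of the range on every substrate. It had 88, 50 and 30 counts on pine, 162, 181 and 170 counts on aspen, and 74, 50 and 206 counts on maltose. These are levels of 2.54, 1.71 and 1.21 CPM on pine, 4.63, 5.06 and 5.03 CPM on aspen, and 2.19, 1.38 and 5.42 CPM on maltose. The pine cultures lay below all aspen cultures, and the maltose cultures overlapped with both woods. Maltose replicates 1 and 2 lay within the pine range, and maltose replicate 3 was above all other libraries.

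Neither wood differed from maltose by the test for 1369658 (log2 fold change -0.71, 95% confidence interval -1.67 to 0.25, on pine, and 0.71, -0.22 to 1.64, on aspen, edgeR adjusted p = 0.186 for each). Without maltose replicate 3 the pine value turned to 0.04 and the aspen value became 1.45, which passed the threshold (edgeR adjusted p = 0.00766). Without maltose replicate 2 the pine value was -1.06 (edgeR adjusted p = 0.0491). It was 2.68-fold lower on pine than on aspen (log2 fold change -1.42, SE 0.44, edgeR adjusted p = 0.0290), a call that Bonferroni adjustment of the same edgeR test removed. Leaving out pine replicate 2, pine replicate 3 or any aspen replicate ended that call (log2 fold changes -1.37, -1.21, -1.46, -1.40 and -1.40, edgeR adjusted p = 0.0895, 0.0945, 0.0601, 0.0655 and 0.0606). The call also ended when the library code was added to the model (-0.96, edgeR adjusted p = 0.178).

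Library codes began with PAW or PAU, and what the prefix marks is not given in the sources used here. All 3 pine libraries and aspen replicate 3 were PAW, as were maltose replicates 1 and 2. Among the PAW libraries, 1464049 had 2.53 to 4.50 CPM on pine, 444 CPM in the 1 aspen library, and 1.84 and 2.02 CPM on maltose. MnP 1468611 had 368 to 1791 CPM on pine, 1259 CPM in that aspen library, and 0.829 and 1.49 CPM on maltose. The large contrasts were therefore also present within 1 prefix, where aspen had a single library and no test was made.

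Levels of different genes were compared per kb of annotated gene span, introns included, since coding lengths were not used here. On pine, 1468611 averaged 735 CPM per kb and 1436321 averaged 169 CPM per kb, with overlapping ranges, followed by 1464049 at 2.32 and 1369658 at 1.07 CPM per kb. On aspen the order was 1468611 (1191 CPM per kb), 1464049 (284 CPM per kb), 1436321 (143 CPM per kb) and 1369658 (2.90 CPM per kb), and the ranges of neighbours in that order did not overlap. On maltose all 4 genes lay between 0.591 and 3.20 CPM per kb in every library, and neighbours in the order could not be separated. Per kb of gene span, 1464049 thus stood above 1436321 on aspen and below it on pine. The aspen order rests on the division by span. Without it, aspen replicate 2 had 449 CPM for 1436321 and 361 CPM for 1464049, so the aspen ranges of these genes overlapped.

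**Figure D3:**
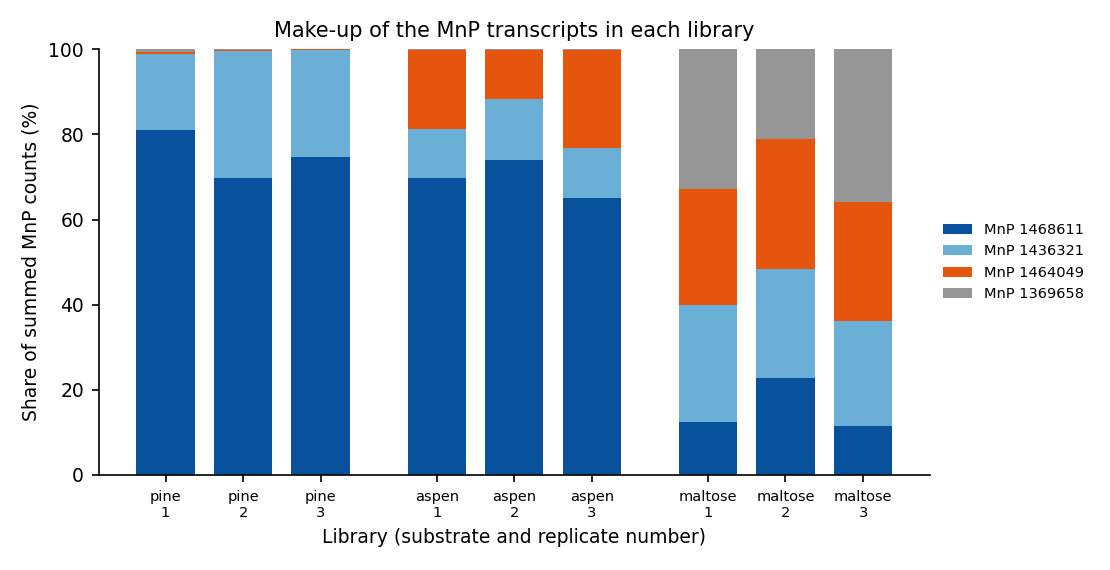
Share of each MnP gene in the summed MnP counts (percent) of each of the 9 libraries. On pine, 1468611 and 1436321 made up nearly all of the MnP counts, on aspen 1464049 added 11.5 to 22.9%, and on maltose the counts were spread over all 4 genes.

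The make-up of the MnP transcript pool, which does not depend on library scaling, differed in the same way. MnP 1468611 supplied 75.2 ± 5.66% of the MnP counts on pine and 69.6 ± 4.50% on aspen (SD, n = 3 each, exact permutation p = 0.2). MnP 1436321 supplied 24.2 ± 6.10% on pine and 12.6 ± 1.53% on aspen (SD, n = 3 each, exact permutation p = 0.1). MnP 1464049 supplied 0.323 ± 0.233% on pine and 17.6 ± 5.76% on aspen (SD, n = 3 each, exact permutation p = 0.1). The pine and aspen cultures did not overlap for 1436321 and 1464049, where an exact permutation p of 0.1 is again the smallest possible (0.2 when adjusted over the 4 genes). On maltose, the shares of single genes ranged from 11.5% for 1468611 to 35.9% for 1369658, on sums of 226, 238 and 574 counts.

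Within a library, the ratio of 2 MnP counts shows whether a pair responded unequally to the woods. Counts of 1468611 per count of 1436321 were 4.58, 2.34 and 2.98 on pine, 6.03, 5.17 and 5.51 on aspen, and 0.452, 0.885 and 0.465 on maltose. Every aspen culture thus held more 1468611 relative to 1436321 than any pine culture (pine minus aspen -0.81 on the log2 scale). The ratio of 1468611 to 1464049 was 137, 371 and 398 on pine, against 3.77, 6.43 and 2.84 on aspen.

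Of the 6 pairs compared, 4 did not overlap between pine and aspen, each with an exact two-sided permutation p of 0.1 (0.15 when adjusted over the 6 pairs), so none could pass the threshold. These were 1468611 with 1436321 and the 3 pairs of 1464049. The 3 pairs of 1464049 share that gene and so largely restate its own difference between the woods. How many pairs over all genes fail to overlap was not counted, so the number of pairs is a description only. On the log2 scale and as pine minus aspen, the ratio of 1468611 to 1464049 differed by 6.06, that of 1436321 to 1464049 by 6.86, and that of 1464049 to 1369658 by -5.48. The pairs of 1369658 with 1468611 and with 1436321 overlapped (exact permutation p = 0.6 and 0.4).

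**Figure D4:**
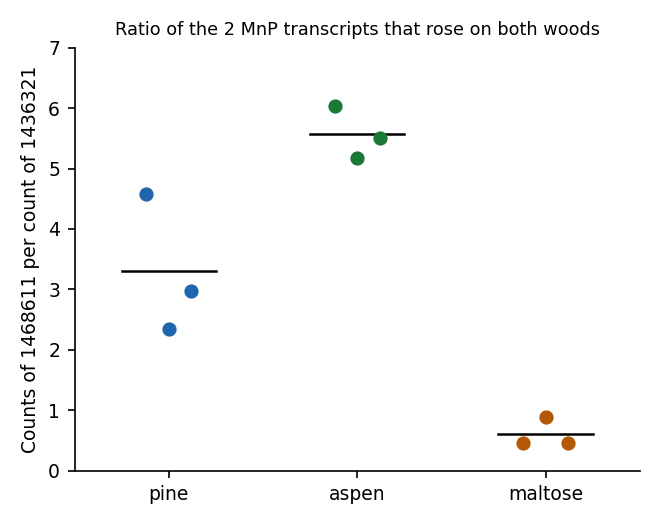
Counts of MnP 1468611 per count of MnP 1436321 in each library on pine, aspen and maltose, with the mean of 3 libraries as a line. The aspen ratios lie between 5.17 and 6.03, above the pine ratios of 2.34 to 4.58 and the maltose ratios, which lie under 1.

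The MnP genes lie in different surroundings of the genome assembly Pycco1. MnPs 1436321 and 1468611, which rose on both woods, stand on the same run of genes with 44 genes and 104 kb between them. Scaffold names were not available, so a run was read from rising start positions in annotated order. MnP 1464049 stands beside a run of 3 LiP genes, 1431101, 1403742 and 779035, of which 1431101 is the next gene, at a distance of 1501 bp. MnPs 1369658, 1468611 and 1436321 have no class II peroxidase among the 3 genes on either side.

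The neighbouring LiP 1431101 shared the rise of 1464049 on aspen. The study reported that no LiP transcripts were detected, which differs from the counts used here, and the reason was not tested. LiP 1431101 had 266, 340 and 495 counts on pine, 59934, 92235 and 42987 counts on aspen, and 30, 32 and 36 counts on maltose. It was 142-fold lower on pine than on aspen (log2 fold change -7.15, SE 0.43, edgeR adjusted p = 5.51e-07). It also rose on pine against maltose (log2 fold change 3.84, SE 0.39, edgeR adjusted p = 3.69e-06) as well as on aspen against maltose (10.99, SE 0.51, edgeR adjusted p = 1.14e-08).

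The other LiP genes on that side had 6 to 20 counts (1403742) and 8 to 60 counts (779035) in every library and were not called. On the other side of 1464049, gene 1382876, at 307 bp, averaged 158 CPM on pine, 163 CPM on aspen and 119 CPM on maltose (log2 fold change 0.46 on aspen, edgeR adjusted p = 0.0438), and gene 1449680 beyond it fell on pine (-0.61). The aspen rise of over 100-fold was thus shared by 1464049 and 1431101 and not by the genes next to them.

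**Figure D5:**
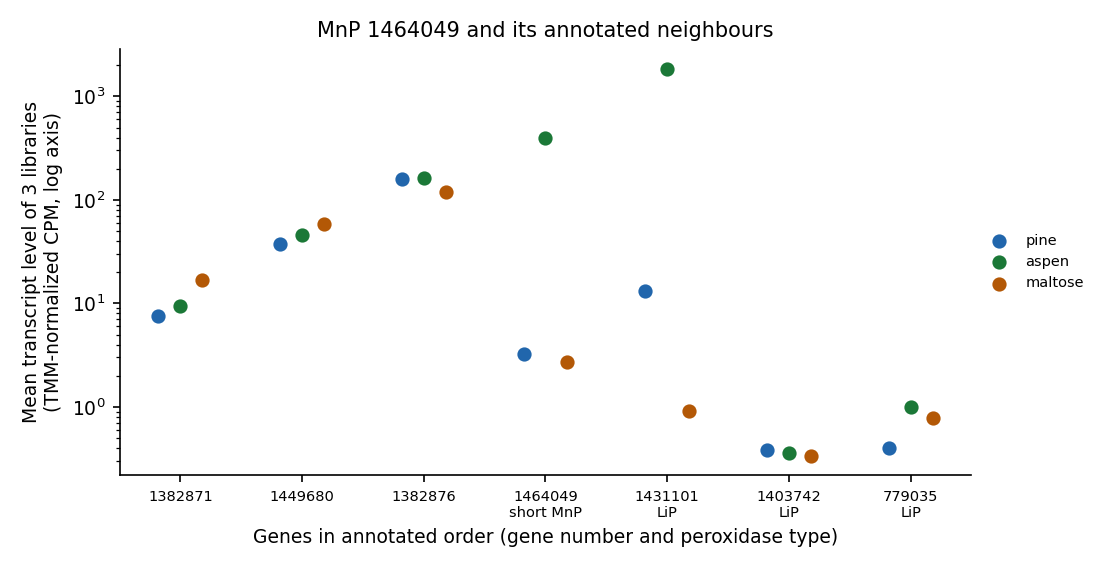
Mean level of 3 libraries per substrate (TMM-normalized CPM, log axis) for MnP 1464049 and the 3 annotated genes on each side, in annotated order. The aspen points stand far above pine and maltose for 1464049 (395 CPM) and LiP 1431101 (1855 CPM), and the substrates lie much closer together for the other 5 genes.

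Around 1468611 and 1436321, the called changes of the 2 nearest genes on each side were far smaller than those of the MnPs on wood. Next to 1468611, gene 1436364 fell on pine (log2 fold change -1.12), gene 1468613, a cytochrome P450, fell on aspen (-1.07), and gene 1391815, at only 82 bp, rose on aspen by 0.62. Beyond that window, gene 1369226, the next after 1468613, rose on pine by 3.92 (edgeR adjusted p = 1.23e-05). Gene 1369226 averaged 164 CPM on pine, 9.13 CPM on aspen and 10.8 CPM on maltose. Other genes 3 places from an MnP were also called, in both directions, and are not described. Next to 1436321, genes 1445670 and 1436322 fell on pine (-1.04 and -1.23) and gene 1369507 rose on pine (0.60). Around 1369658, which was itself not called against maltose, 3 neighbours were. Over all tested genes, 29.1% rose and 28.8% fell on pine, and 26.3% rose and 24.9% fell on aspen. Gene 1426014 rose on pine (0.79) and on aspen (2.20) and was lower on pine than on aspen (-1.41, edgeR adjusted p = 0.00199), gene 533831 rose on both woods (0.87 on pine and 1.30 on aspen), and gene 1392083 fell on both (-1.12 on pine and -1.84 on aspen).

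Among the 7 other class II peroxidases, 3 rose and 1 fell on pine, and 2 rose and 1 fell on aspen. All tested genes gave 29.1% higher and 28.8% lower on pine, and 26.3% higher and 24.9% lower on aspen. Per kb of gene span, LiP 1431101 averaged 951 CPM on aspen, beside 1191 CPM for MnP 1468611. VP 1468768 rose on both woods (log2 fold change 1.55 on pine and 1.05 on aspen, edgeR adjusted p = 0.00470 and 0.0409). Even so, it averaged 2.72 CPM on pine, 1.91 CPM on aspen and 0.917 CPM on maltose. Over 17 alternatives, the number of these 7 genes called on aspen against maltose ran from 2 to 4. VP 1469331 rose on pine (1.61) at 1.69 CPM on pine and 0.552 CPM on maltose.

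The atypical VP 1438352 went the other way to the MnPs. Its log2 fold change was -3.60 on pine (edgeR adjusted p = 5.22e-07) and -4.23 on aspen (edgeR adjusted p = 1.68e-07), with 10.6 ± 3.29 CPM on pine, 6.87 ± 0.813 CPM on aspen and 129 ± 34.9 CPM on maltose (SD, n = 3 each). On maltose it was thus the most abundant class II peroxidase transcript, where each MnP had under 6 CPM. LiP 859168, at 2.26 CPM on pine, 3.13 CPM on aspen and 2.24 CPM on maltose, was not called.

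Enzymes that could supply the hydrogen peroxide used by MnPs were tested as a list of 24 oxidases of 4 families. On pine, 18 rose and 4 fell, with a median log2 fold change of 1.87, and on aspen 17 rose and 4 fell, with a median of 1.62. Between the woods, 5 were higher on pine and 7 lower. Over all tested genes the calls were 29.1% higher and 28.8% lower on pine, 26.3% higher and 24.9% lower on aspen, and 15.2% higher and 15.1% lower between the woods, with medians of -0.03, -0.02 and -0.05. The largest rise on each wood was that of 1368318, an alcohol oxidase of family AA3_3 (8.00 on pine and 8.83 on aspen, edgeR adjusted p = 7.63e-08 and 4.52e-08), with 1161 ± 434 CPM on pine, 2056 ± 821 CPM on aspen and 4.52 ± 1.15 CPM on maltose (SD, n = 3 each).

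Next came 1429888 of family AA3_2, which holds aryl-alcohol oxidases and related flavoenzymes (5.46 on pine and 6.88 on aspen). After it stood members of the copper radical oxidases AA5_1, the family of glyoxal oxidase: 1454649 on pine (4.32) and 1376269 on aspen (6.30). At the other end, the AA3_2 genes 1462838 and 68108 fell on both woods (-3.20 and -1.90 on pine, -2.24 and -1.96 on aspen), 1436734 fell by 1.28 on pine, and 1433476 fell by 2.32 on aspen. Cellobiose dehydrogenase 1401955, which oxidizes cellobiose and passes electrons to other oxidative enzymes, rose on both woods (4.59 on pine and 5.66 on aspen, edgeR adjusted p = 0.000140 and 4.69e-05).

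Genes with the most similar pattern to each MnP were found by the root mean square difference of centred log2(CPM + 1) over the 9 libraries, which share their depth and scaling, and are given as a description. Nearest to 1468611 was 1438837 (0.44, where the median over all 11129 other genes was 4.32), then 1437297, the AA3_3 alcohol oxidase 1368318 (0.98), 1425076 and 1447350. MnP 1436321 ranked 7 in this list, whereas 1468611 ranked 56 in the list of 1436321. Gene 1438837 averaged 1045 CPM on pine, 2267 CPM on aspen and 3.59 CPM on maltose.

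Nearest to 1436321 were 701883 (0.53), 1447350, 271638, 1389582 and 1424462. Nearest to 1464049 were 1435541 (0.36), the GH10 xylanase 1395316 (0.44), 1442642, 1433039 and 1377160, an esterase of family CE1 with a cellulose-binding module, while LiP 1431101 ranked 15. Xylanase 1395316 averaged 3.32 CPM on pine, 328 CPM on aspen and 1.01 CPM on maltose, beside 3.24, 395 and 2.69 CPM for 1464049 on the same substrates. For 1369658, whose own range was narrow, 1140349, 1421719, 1359161, 1367027 and 1437181 came nearest (0.22 to 0.24, where the median over all genes was 0.73).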

How the data were processed

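RNA-seq of 9 cultures was used, 3 per substrate. The authors aligned the reads to the strain's own genome in TopHat2, kept those with a unique position and assigned them to genes in HTSeq, and the raw counts they deposited cover 12690 genes. The authors' normalized counts are deposited as a signal, the raw counts times 1 constant per library (0.990 to 1.59), with DESeq 1.5 per the submitters' processing notes. Odd numbers made up 18.0 to 28.0% of the counts of 1 to 49, as when both reads of a pair are counted. Nothing in the sources used here states that counting used strand, and similarity between the MnP genes was not examined.

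A gene was tested if its raw counts averaged at least 5. One edgeR 4.0.16 quasi-likelihood model (R 4.3.3, TMM scaling) was fitted to all 9 libraries, and p-values were adjusted over 11130 genes by the Benjamini-Hochberg method. The test was run on simulated data in which only a small part of the genes was changed. It was not checked under changes as broad as those found here. Each SE was derived from the F statistic and so restates the test. Shares, sums and ratios were compared by exact permutation tests over libraries (SciPy 1.17.1), where 3 against 3 allows no p under 0.1. DESeq2 1.42.0, other filters and scalings, covariates and leaving out each library were alternatives. Gene order and spans came from assembly Pycco1, in which 12680 gene numbers were found. Gene families are those of the study's annotation. Genes named were the 4 MnPs, the 7 other class II peroxidases, the 3 largest and 3 smallest changes among the oxidases on each wood, cellobiose dehydrogenase, the 5 nearest genes per MnP and the called genes among the 2 on each side. Members and lists were chosen with earlier results of these data known. Genes 507860 and 1369226 and the laccases named below were named beyond that rule, after their values were seen.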

Additional observations from a re-analysis of the deposited data

Results flagged for a closer look

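For 3 of the 11 annotated class II peroxidase genes the change against maltose differed between the woods, as tested by pine against aspen in the same edgeR fit. All 3 were lower on pine. Over all tested genes, 15.2% were higher and 15.1% lower on pine than on aspen. MnP 1464049 differed by a log2 fold change of -6.94 (pine 0.26, aspen 7.19 against maltose, edgeR adjusted p = 2.62e-07), with every pine culture below every aspen culture. The neighbouring LiP 1431101 differed by -7.15 (pine 3.84, aspen 10.99 against maltose, edgeR adjusted p = 5.51e-07), also without overlap. MnP 1369658 differed by -1.42 (pine -0.71, aspen 0.71 against maltose, edgeR adjusted p = 0.0290), at levels under 6 CPM in all 9 libraries and with a call that ended in 6 of 17 alternatives.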

How the results depend on the processing

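The rises of 1468611 and 1436321 on both woods, and those of 1464049 on aspen against maltose and against pine, kept direction and call in each of 17 alternatives. Between pine and aspen, adding the library code prefix to the model left 1 MnP call in place of 2, 4 oxidase calls in place of 12 and 1453 genes called in place of 3369, and gave -0.96 for 1369658. Correlations between cultures with the same replicate number ran from -0.10 to 0.41. Cultures with different numbers were not compared, so whether the numbers pair the cultures was not settled. With the replicate block, 1436321 gave -0.083 for pine against aspen, laccase calls between the woods became 2 in place of 1, as with the DESeq2 Wald test (2), and no other call count moved by over 1.5 times. Leaving out 1 library gave 1 to 2 MnP calls, 1 to 2 other class II calls, 1 to 2 laccase calls and 2183 to 4181 genes called between the woods. Leaving out 1 library gave log2 fold changes for pine against aspen of -1.36 to -0.29 for 1468611, -0.34 to 0.72 for 1436321 and -1.74 to -1.21 for 1369658. Against maltose, 1464049 ran from -0.059 to 0.74 on pine, and 1369658 from -1.06 to 0.035 on pine and 0.36 to 1.45 on aspen. The summed MnP level, pine minus aspen, ran from -1.57 to -0.37 and the share of 1468611 differed by 2.69 to 8.33 percentage points (9.36 per kb of gene span). The share of 1369658 differed between the woods by -0.13 to 0.13 percentage points and the log2 ratio of 1468611 to it by -0.22 to 1.46. The share per kb of coding sequence was not run, and the share per kb of gene span, chosen after seeing the data, kept each direction, as did leaving out libraries for the other 5 ratios, also chosen after seeing the data. With a pseudocount of 0.5 or 5, 3 and 2 of the 5 genes nearest to 1369658 stayed, and with 5, 3 of those nearest to 1436321. The causes of these shifts were not tested. Counts of at most 206 per library limit what 1369658 can show.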

Other observations

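Laccases, multicopper oxidases that oxidize phenols with oxygen in place of hydrogen peroxide, were tested as a list of 5 genes. On each wood 4 fell and none rose, where 28.8% of all tested genes fell on pine and 24.9% on aspen. The remaining gene was not called. The median of the 5 laccases was -2.21 (pine) and -2.75 (aspen) on the log2 scale, where that of all tested genes was -0.03 and -0.02.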
